A study of Mus musculus with 8 samples.

Results

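Ltb4r1, Ptger2, Ptger4, Gpr183, S1pr4 and P2ry10 encode cell surface receptors for lipid mediators, and their expression was followed in mouse regulatory T cells (Tregs) with and without the nuclear receptor gene Pparg. The 6 genes were taken by symbol from a count table of 55011 symbols, and all 6 were found and were among the 12414 genes tested. They were picked with the differences between these groups already known, so their levels and fold changes are given as a description with no p-value. Ltb4r1 passed the filter on low counts through the groups in which it was high, since it had only 10 and 3 counts in the group in which it was lowest.

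The data were RNA sequencing libraries of Tregs, the Foxp3-expressing CD4 T cells that restrain immune responses, sorted from skin and spleen of mice at day 13 per the sample titles and at 2 weeks of age per the series' design text. All animals carried Foxp3-Cre, which drives Cre recombinase from the Foxp3 locus and so in Tregs. Controls were Pparg+/+ Foxp3-Cre (WT below) and the others were Ppargf/f Foxp3-Cre, with floxed Pparg (KO below). The 4 groups, 2 genotypes in each of 2 tissues, had 2 libraries each, from 1000 cells sorted in 2 rounds per library, and no treatment was given. The number of animals per library is not stated, so the spread between the 2 libraries of a group may be partly technical.

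Lipid mediators such as leukotrienes, prostaglandins, lysolipids and oxysterols are made from membrane lipids or cholesterol, act over short distances and bind G protein-coupled receptors. Receptors that couple to Gi lower cyclic AMP and steer migration, whereas receptors that couple to Gs raise cyclic AMP and dampen T cell activation. BLT1, the product of Ltb4r1, is a Gi-coupled chemoattractant receptor for leukotriene B4. EP2 and EP4, encoded by Ptger2 and Ptger4, are the Gs-coupled prostaglandin E2 receptors. EBI2, the product of Gpr183, guides lymphocytes along oxysterol gradients, S1pr4 encodes a receptor for the sphingolipid S1P, and P2ry10 encodes a receptor for lysophosphatidylserine. PPARγ, the product of Pparg, is a transcription factor that responds to fatty acids and binds DNA together with RXR.

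Ltb4r1, Ptger2 and Gpr183 lie on chromosome 14. In GENCODE M21, on the mm10 build, Ltb4r1 spans chr14:55765962-55768494 on the plus strand with 1394 exon bases in 2 exon blocks. Ptger2 is at chr14:44988195-45003820 on the plus strand and Gpr183 at chr14:121952551-121965195 on the minus strand. Ptger4 is at chr15:5206661-5244187 on the minus strand, S1pr4, a gene of 1 exon, at chr10:81497747-81500132 on the minus strand, and P2ry10 at chrX:107088492-107104974 on the plus strand. Since the strand setting of the counting was not given in the sources used here, reads of overlapping genes cannot be told apart. Ptger2 shares 246 exon bases with the antisense gene Gm17173 (294 counts in all libraries) and 144 with Gm49364 (42 counts). Ptger4 shares 82 with Ttc33 (1555 counts), and Gpr183 lies within Ubac2 (5350 counts) with 0 shared exon bases. P2ry10 has a paralog, P2ry10b, 43952 bases to its right, and its counts are uncertain to the extent that reads match both.

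The 250 bases before the RefSeq start of 3 members are shown because the gene deleted encodes a DNA-binding receptor and these windows were searched for its motif. The 3 are Ltb4r1, the member with the largest difference between genotypes, P2ry10, the member with a nuclear receptor half-site, and Ptger2, on the same chromosome as Ltb4r1 and higher rather than lower in KO skin. Sequences are from RefSeq on GRCm38.p6, the assembly of mm10, written 5′ to 3′ on the strand of the gene, with capitals marking the motif found.
Ltb4r1, chr14:55765712-55765961, plus strand: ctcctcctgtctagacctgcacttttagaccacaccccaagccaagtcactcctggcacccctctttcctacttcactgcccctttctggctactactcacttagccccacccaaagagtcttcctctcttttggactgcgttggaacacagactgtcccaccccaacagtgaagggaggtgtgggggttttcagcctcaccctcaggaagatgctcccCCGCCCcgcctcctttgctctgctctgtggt
P2ry10, chrX:107088242-107088491, plus strand: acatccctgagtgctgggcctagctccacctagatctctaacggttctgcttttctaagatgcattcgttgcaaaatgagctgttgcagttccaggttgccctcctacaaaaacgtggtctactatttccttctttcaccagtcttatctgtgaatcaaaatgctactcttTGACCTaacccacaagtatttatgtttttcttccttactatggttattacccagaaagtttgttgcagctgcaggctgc
Ptger2, chr14:44987861-44988110, plus strand: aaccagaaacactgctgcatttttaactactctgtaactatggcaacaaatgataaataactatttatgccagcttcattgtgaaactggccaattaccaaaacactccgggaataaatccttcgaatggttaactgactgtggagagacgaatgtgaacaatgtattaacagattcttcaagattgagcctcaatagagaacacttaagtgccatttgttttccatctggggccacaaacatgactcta
In Ltb4r1 the capitals mark a GC box, GGGCGG, read on the minus strand at bases -31 to -26 from the start. In P2ry10 they mark the half-site AGGTCA, read on the minus strand at bases -79 to -74. Ptger2 held none of the motifs searched.

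All 6 members matched the RefSeq promoter table of 32851 windows and 27025 symbols, and 4 motifs were searched on both strands. The GC box was found in Ltb4r1 and Ptger4 among the members and in 32.7% of all promoter windows. Ptger4 held 4 GC boxes, of which 1 pair shared a base. The half-site AGGTCA was in 14.0% of all windows and only in P2ry10 among the members. The PPAR response element as a direct repeat, AGGTCANAGGTCA, which contains the half-site, was in 0 of the 6 members' windows and in 11 of all windows (0.0335%). The TATA box TATAAA was in none of the members' windows and in 12.4% of all. GC content was 56.8% in Ltb4r1 and 66.8% in Ptger4, against 38.0% in Ptger2, 32.0% in Gpr183, 38.8% in S1pr4 and a median of 52.4% over all windows. For P2ry10, which has 2 windows, it was 43.2% and 38.4%. A match is a description of these letters and not evidence of binding.

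Levels below are in CPM, the counts divided by the TMM-scaled library size, as mean ± SD over n = 2 libraries unless the value of each library is given. Library totals ran from 3115832 to 4466963 counts with 17262 to 19274 genes detected. Pparg, the targeted gene, was in skin at 75.7 and 59.8 CPM with the intact gene and 8.46 and 13.3 with the floxed gene, and in spleen at 22.5 and 12.3 against 2.16 and 1.66. KO was thus 6.04-fold below WT for skin (adjusted p = 0.000609 from edgeR) and 7.41-fold below for spleen (adjusted p = 0.00418 from edgeR), in the direction of the labels. The Treg markers summed to 3938 to 7117 CPM of the total count per library, and all 8 of them were detected in every group. Foxp3 in skin was at 355 ± 35.2 CPM (WT) and 294 ± 47.2 (KO), and in spleen at 189 ± 20.6 (WT) and 194 ± 4.90 (KO). Xist was at 421 to 610 CPM (TMM scaled) in the libraries numbered replicate 1 and at most 0.302 in those numbered replicate 2. The replicate number and the sex of the animals thus went together within every group. The 2 libraries of a group came from animals of different sex, so the SD over them includes any difference between the sexes. The counts of the 2 libraries of each group differed by more than sampling noise, with a chi-square of 4.47 to 7.32 per degree of freedom.

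Ltb4r1 was higher in WT than in KO Tregs in both tissues, and highest in WT skin. The WT skin libraries had 705 and 371 CPM (2860 and 1042 counts), and the KO skin libraries 53.1 and 23.5 CPM (201 and 78 counts). The WT spleen libraries had 79.8 and 65.5 CPM (341 and 229 counts), and the KO spleen libraries 2.70 and 0.712 CPM (10 and 3 counts). The genotypes did not overlap in either tissue: the lowest WT library was 6.98 times the highest KO library in skin and 24.3 times in spleen. The order of the group means was WT skin (538 ± 237), WT spleen (72.7 ± 10.1), KO skin (38.3 ± 20.9) and KO spleen (1.70 ± 1.40), and no neighbours in this order overlapped. WT spleen therefore stood above KO skin, although skin was the higher tissue within each genotype. Since these are bulk libraries, fewer cells that express a gene and less RNA per cell cannot be told apart.

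The fitted log2 fold change of Ltb4r1, KO against WT, was -3.78 ± 0.55 (SE) in skin, a 13.8-fold lower level, and -5.07 ± 0.80 in spleen, a 33.5-fold lower level. The SE here and below was taken as the absolute log2 fold change over the square root of the edgeR F statistic. It is an approximation and not an SE fitted by the model. Averaged over both tissues the log2 fold change of Ltb4r1 was -4.43 ± 0.48, or 21.5-fold lower. By the edgeR threshold of 0.05 on the adjusted p, 0 of the 6 members passed in skin or in spleen, Ltb4r1 included. Of all genes, 0.894% passed in skin and 0.282% in spleen. For the average, Ltb4r1 alone of the members passed, where 0.789% of all genes did. No weight is put on these calls, since the members were chosen on the same contrasts. The genotype effect in skin minus that in spleen was 1.28 ± 0.92 on the log2 scale, less than 2 SE from 0, so the folds in the 2 tissues were not told apart at these counts. Ltb4r1 was higher in the replicate 1 library of every group, by ratios of 1.90 (WT) and 2.26 (KO) in skin and of 1.22 (WT) and 3.79 (KO) in spleen. The replicate number moved with Xist, as given above, and its part in these ratios was not tested. Leaving out 1 library at a time gave log2 fold changes from -4.49 to -3.25 in skin and from -5.86 to -4.49 in spleen, the lowest spleen value being that without KO spleen replicate 1, which leaves the library of 3 counts.

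**Figure D1:**
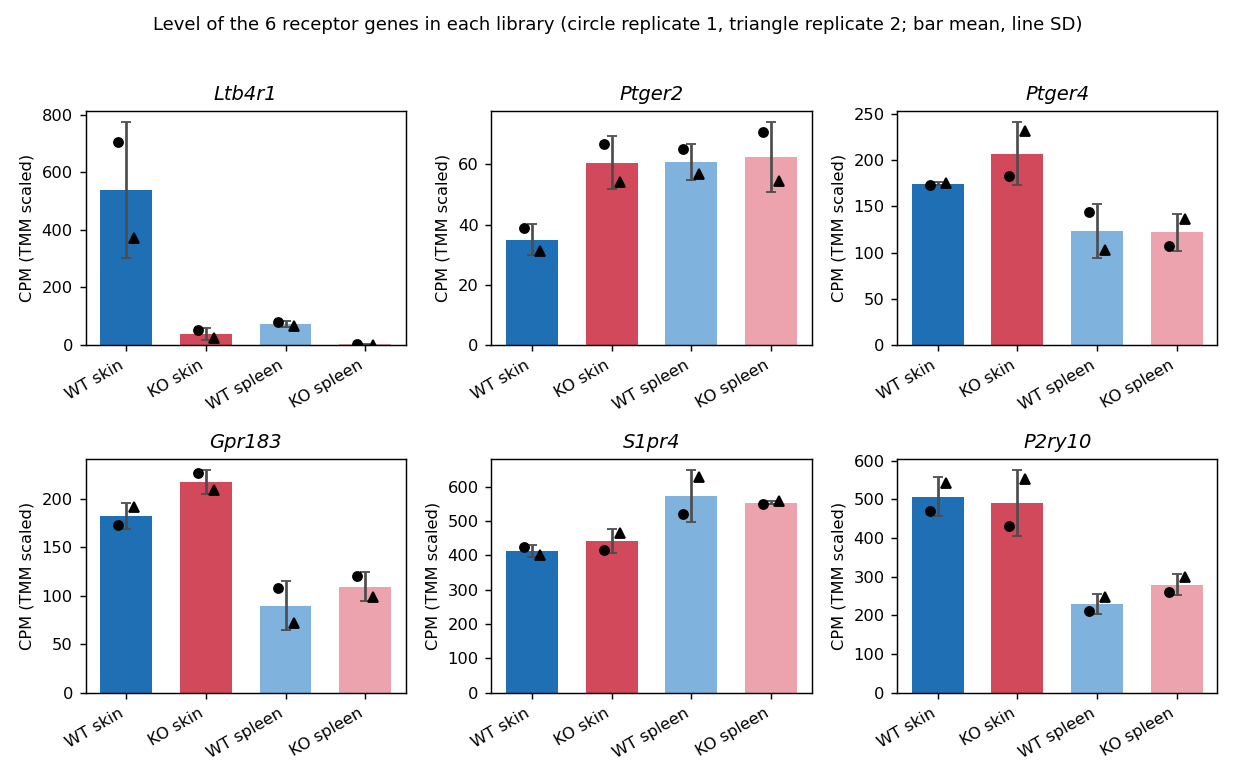
CPM (TMM scaled, linear axis from 0) of the 6 receptor genes in the 4 groups, with a circle for replicate 1, a triangle for replicate 2, bars for the mean and lines for the SD over 2 libraries. Mean Ltb4r1 ran from 538 in WT skin to 1.70 in KO spleen, and mean Ptger2 was lowest in WT skin at 35.0.

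Markers of other cell types, among them types that can carry BLT1, were summed in each library. The 12 myeloid markers together, in CPM of the library total, summed to 16.3 and 8.02 (WT) and 11.4 and 17.4 (KO) for skin, and to 11.3 and 21.9 (WT) and 15.9 and 27.3 (KO) for spleen. In WT skin, where Ltb4r1 was highest, 4 of the 12 were at 0 in both libraries, namely Lyz2, S100a8, S100a9 and Csf3r. The other 8 had counts there, given for replicates 1 and 2. Cd68 had 33 and 7, Tyrobp 20 and 4, Fcer1g 8 and 4, and Adgre1 8 and 0. Csf1r had 1 and 1, Cd14 2 and 5, Itgam 1 and 3, and Mpeg1 0 and 1. The myeloid sums of WT and KO overlapped in both tissues. The 8 dendritic and Langerhans cell markers summed to 114 and 149 (WT) and 99.8 and 141 (KO) for skin, which overlapped. For spleen they summed to 45.4 and 55.9 (WT) and 34.1 and 37.3 (KO), lower in KO without overlap, as Ltb4r1 was. Epcam was the highest of these markers in every group, with 483 and 449 counts (WT) against 386 and 467 (KO) for skin, and 141 and 155 (WT) against 70 and 108 (KO) for spleen. The lower sum in KO spleen came from Epcam. Zbtb46 went the other way in spleen, with 36 and 25 counts (WT) against 46 and 37 (KO). Batf3 was at 0 in all 4 groups, and Cd207, Flt3 and Clec9a were at 0 in WT skin. The 7 CD8 T and NK cell markers summed to 31.8 and 8.99 (WT) and 26.7 and 28.9 (KO) for skin, and to 30.8 and 28.7 (WT) and 22.9 and 29.1 (KO) for spleen. The 8 mast cell and eosinophil markers summed to 0.773 to 20.5 per library, with Kit the highest of them, and Mcpt4, Cma1, Ms4a2 and Fcer1a were at 0 in all 4 groups. The 10 B cell markers summed to 29.8 and 18.0 (WT) and 31.1 and 35.0 (KO) for skin, higher in KO without overlap. For spleen they summed to 50.2 and 47.9 (WT) and 28.5 and 34.0 (KO), lower in KO without overlap, as Ltb4r1 was. Cd79b was the highest of them in every group, with 186 and 132 counts (WT) against 84 and 104 (KO) for spleen. Cd79a overlapped there, with 6 and 19 (WT) against 9 and 16 (KO). The part of any of these cells in the Ltb4r1 values was not tested.

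The genes on either side of Ltb4r1 were little expressed. Ltb4r2, which encodes the low-affinity leukotriene B4 receptor BLT2 and ends 823 bases to the left of Ltb4r1, had 5 counts in the 8 libraries together. Adcy4, an adenylyl cyclase gene 562 bases to the right on the opposite strand, had 74. Mean Adcy4 was 5.05 CPM (WT) and 2.08 (KO) for skin, and 2.58 (WT) and 0.270 (KO) for spleen. By library it was at 6.91 and 3.20 CPM (WT) against 2.64 and 1.51 (KO) in skin. In spleen it was at 2.57 and 2.58 (WT) against 0.540 and 0 (KO). Adcy4 was thus lower in KO without overlap in both tissues, as were Ltb4r1 and 4.34% of all genes. Its log2 fold change, KO against WT, was -1.11 ± 0.71 in skin (edgeR adjusted p = 0.625), -1.96 ± 0.70 in spleen (edgeR adjusted p = 0.403) and -1.54 ± 0.48 averaged (edgeR adjusted p = 0.21), and none of these passed the threshold of 0.05 on the adjusted p.

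Ptger2 and Ptger4, the prostaglandin E2 receptor genes, were not lower in KO Tregs. Ptger2 was at 38.7 and 31.3 CPM in WT skin and at 66.9 and 54.3 in KO skin, with no overlap. In spleen it was at 65.1 and 56.7 CPM in WT and 70.7 and 54.3 in KO, which overlapped. WT skin (35.0 ± 5.24) thus stood below the other groups, which lay close together at 60.6 ± 8.88 (KO skin), 60.9 ± 5.93 (WT spleen) and 62.5 ± 11.6 (KO spleen). The log2 fold change, KO against WT, was 0.78 ± 0.21 in skin and 0.03 ± 0.21 in spleen, and the difference between these effects was 0.74 ± 0.30. Ptger2 was higher in replicate 1 than in replicate 2 in all 4 groups. Gm17173, the antisense gene that shares exon bases with Ptger2, had a log2 fold change of 0.65 ± 0.50 in skin (edgeR adjusted p = 0.697), and its part in the Ptger2 value was not tested.

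Ptger4 in skin was at 174 and 176 CPM in WT and 183 and 231 in KO, and in spleen at 144 and 103 in WT and 108 and 136 in KO. KO skin lay above WT skin with a gap of 183 against 176 between the nearest libraries, and the spleen groups overlapped. The log2 fold change was 0.24 ± 0.17 in skin and -0.02 ± 0.17 in spleen. Without KO skin replicate 2 the skin value was 0.06.

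Gpr183 was slightly higher in KO than in WT skin, and its genotypes overlapped in spleen. In skin it was at 173 and 191 CPM in WT and 226 and 208 in KO, which did not overlap, and in spleen at 108 and 71.5 in WT and 120 and 98.5 in KO, which did. The log2 fold change was 0.25 ± 0.17 in skin, 0.28 ± 0.17 in spleen and 0.27 ± 0.12 averaged. The spleen value was 0.61 without WT spleen replicate 1, 0.032 without WT spleen replicate 2 and 0.14 without KO spleen replicate 1. Ubac2, the gene in which Gpr183 lies, had a log2 fold change of -0.21 ± 0.14 in skin (edgeR adjusted p = 0.642) and 0.03 ± 0.14 in spleen (edgeR adjusted p = 0.997).

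S1pr4 and P2ry10, the lysolipid receptor genes among the members, were abundant in every group and differed little between genotypes. S1pr4 in skin was at 424 and 400 CPM in WT and 416 and 467 in KO, in spleen at 520 and 627 in WT and 551 and 557 in KO, and the genotypes overlapped in both tissues. Its log2 fold change was 0.10 ± 0.11 in skin and -0.05 ± 0.11 in spleen. P2ry10 in skin was at 471 and 543 CPM in WT and 431 and 551 in KO, which overlapped, and in spleen at 211 and 248 in WT and 260 and 299 in KO, which did not. Its log2 fold change was -0.05 ± 0.13 in skin and 0.28 ± 0.13 in spleen. P2ry10, an X-linked gene, was higher in replicate 2 in all 4 groups, with ratios of replicate 1 to replicate 2 from 0.781 to 0.870.

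Counted over the members, the libraries of WT and KO did not overlap for 4 of 6 genes in skin, namely Ltb4r1, which was lower in KO, and Ptger2, Ptger4 and Gpr183, which were higher. Of all genes tested in skin, 39.9% did not overlap in either direction, 19.8% being lower and 20.1% higher in KO. In spleen 2 of 6 did not overlap, Ltb4r1 lower and P2ry10 higher, where 38.6% of all genes did not, 19.9% being lower and 18.8% higher in KO. Nothing is read from these counts, since the members were chosen on the same contrasts, and no p is given for them. Ltb4r1 alone was lower in KO without overlap in both tissues at once, as were 4.34% of all genes.

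**Figure D2:**
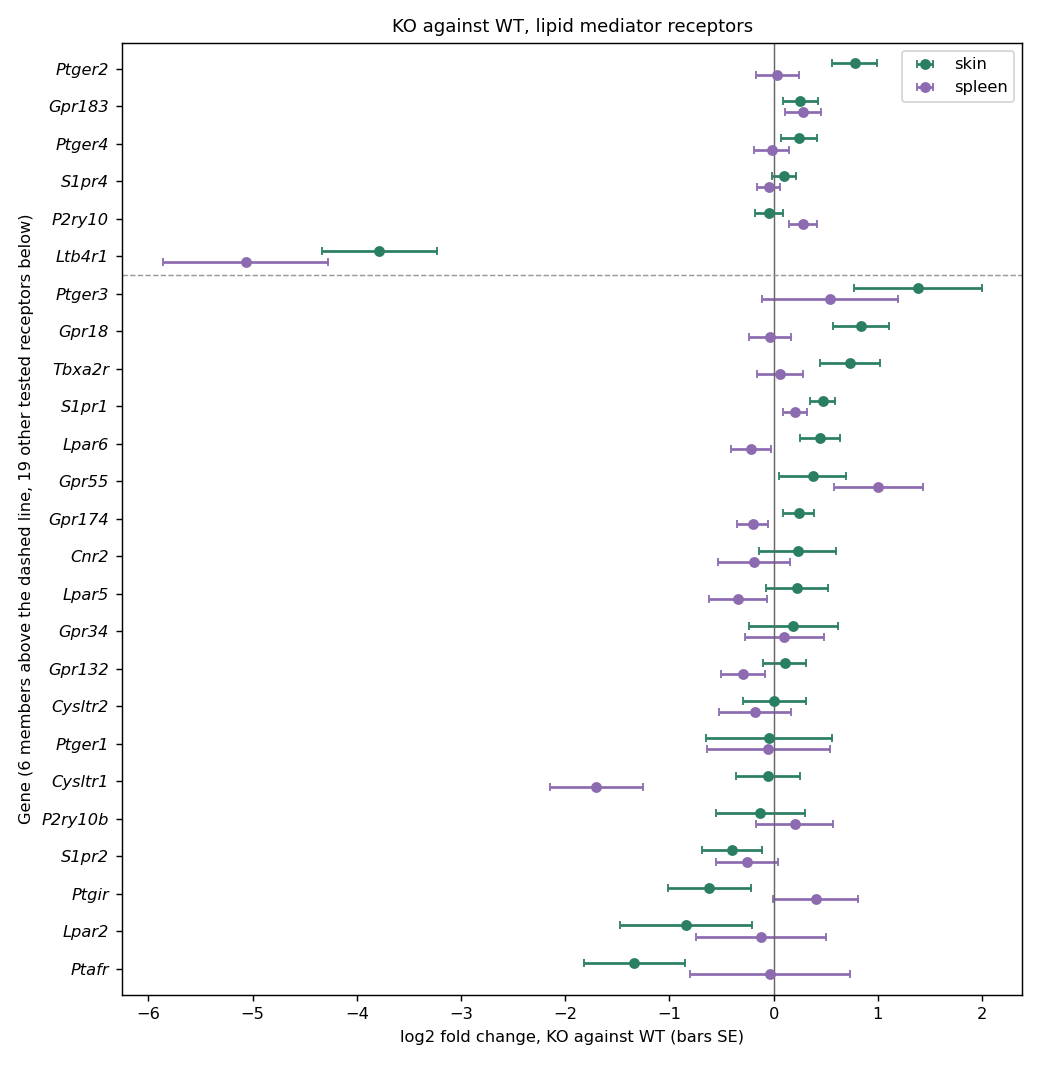
Fitted log2 fold change, KO against WT, with bars for the SE, in skin (green) and spleen (purple), for the 6 members above the dashed line and the 19 other tested lipid mediator receptors below it. Ltb4r1 lies at -3.78 in skin and -5.07 in spleen, and all the other points lie between -1.70 (Cysltr1 in spleen) and 1.38 (Ptger3 in skin). The Ptger3 value in skin rests on 6 counts, all in KO skin replicate 2, with 0 in WT skin.

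The other lipid mediator receptors give the setting of these genes. Of 43 further receptors on the lists, 24 did not pass the filter on low counts, 10 of them with no count at all and none with more than 9 counts in a library. Those not tested include all 9 other receptors for oxysterols, bile acids and fatty acids. Of the 19 that were tested, 0 were past the threshold for genotype in skin by edgeR, with 6 at an unadjusted p under 0.05, where edgeR called 0.894% of all genes. DESeq2 called 0 of the 15 for which it gave an adjusted p, and limma-voom called 0 of 19. In spleen edgeR called 0 of 19 and 0.282% of all genes, with 2 of the 19 at an unadjusted p under 0.05, and DESeq2 and limma-voom called 0. For the average over both tissues edgeR called 0 of 19 and 0.789% of all genes, with 6 of the 19 at an unadjusted p under 0.05, limma-voom called 0 and DESeq2 called 1, S1pr1. For the difference between the tissues edgeR called 0 of 19, with 3 at an unadjusted p under 0.05, where 0.0967% of all genes were called. There limma-voom called 0 of 19, and DESeq2 called 0 of the 15 for which it gave an adjusted p. The share of all genes at an unadjusted p under 0.05 was not computed. The shares given are for the adjusted p, so nothing is read from the counts at the unadjusted cut, here or below. Ltb4r1 itself was not past the edgeR threshold in skin or in spleen, as given above. The median log2 fold change of the 19 was 0.19 in skin against 0.01 over all genes tested, and -0.05 in spleen against a median near 0 over all genes.

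S1pr1, which encodes the S1P receptor that draws T cells out of lymphoid tissue, was nearest to the threshold. In skin it was at 107 and 93.2 CPM in WT and 146 and 132 in KO, and in spleen at 479 and 453 in WT and 563 and 511 in KO, so KO lay above WT without overlap in both tissues. The log2 fold change was 0.47 ± 0.12 in skin (edgeR adjusted p = 0.0925) and 0.34 ± 0.08 averaged over both tissues (edgeR adjusted p = 0.0759). Cysltr1, a cysteinyl leukotriene receptor gene, was at 16.1 and 7.44 CPM in spleen of WT and 5.40 and 1.42 in spleen of KO. Its log2 fold change in spleen was -1.70 ± 0.45 (edgeR adjusted p = 0.217), and in skin it was at 99.9 and 79.7 CPM in WT and 86.7 and 86.9 in KO. Without KO spleen replicate 1 the spleen value was -2.66 with an edgeR adjusted p of 0.0108. In skin, Ptafr, the receptor gene for platelet-activating factor, had a log2 fold change of -1.34 ± 0.48 (edgeR adjusted p = 0.278), and Gpr18 had 0.84 ± 0.27 (edgeR adjusted p = 0.194).

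Between tissues the members differed in both directions. Ltb4r1, P2ry10, Gpr183 and Ptger4 were higher in skin than in spleen in both genotypes. For Ltb4r1 the log2 fold change, skin against spleen, was 2.88 ± 0.52 in WT (7.36-fold) and 4.16 ± 0.83 in KO (17.9-fold). For P2ry10 it was 1.14 ± 0.14 and 0.81 ± 0.13, for Gpr183 1.01 ± 0.17 and 0.99 ± 0.17, and for Ptger4 0.49 ± 0.17 and 0.76 ± 0.17, in WT and KO. S1pr4 was lower in skin, by -0.48 ± 0.11 in WT and -0.33 ± 0.11 in KO. Ptger2 was lower in WT skin than in WT spleen at -0.78 ± 0.21, and its KO libraries overlapped at -0.04 ± 0.21. The libraries of the 2 tissues did not overlap for 6 of 6 members in WT, 4 higher and 2 lower in skin, and for 5 of 6 in KO, 4 higher and 1 lower. Of all genes, 66.6% did not overlap in WT, 32% higher and 34.6% lower, and 65.2% in KO, 31.9% higher and 33.3% lower.

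**Figure D3:**
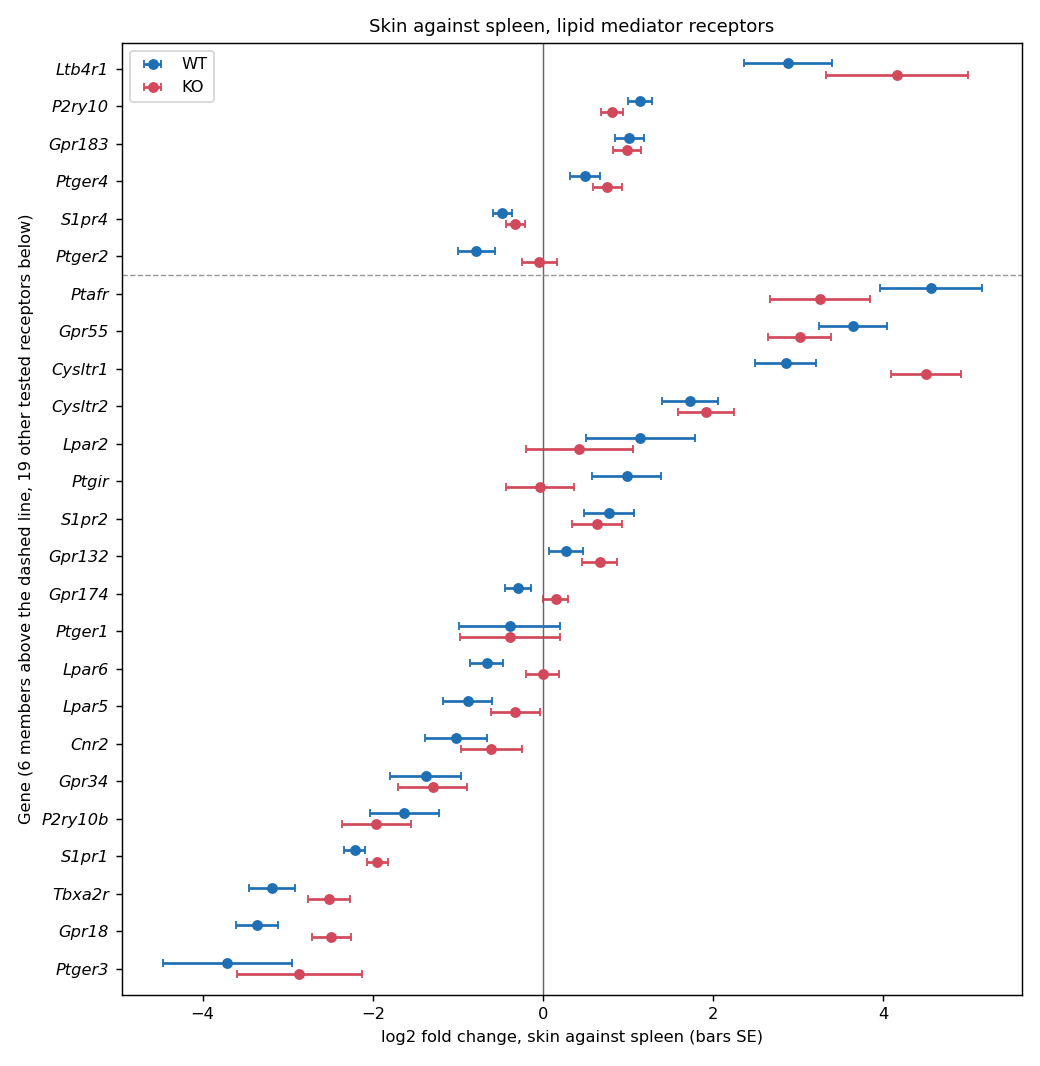
Fitted log2 fold change, skin against spleen, with bars for the SE, in WT (blue) and KO (red), for the 6 members above the dashed line and the 19 other tested receptors below it. The receptors spread to both sides, from Ptafr at 4.56 in WT to Ptger3, whose fitted -3.71 in WT rests on 0 counts in skin and is no bound, with Ltb4r1 at 2.88 in WT and 4.16 in KO.

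The other receptors were also split by tissue. Of the 19 tested, 5 were higher and 9 lower in skin in WT, and 5 were higher and 6 lower in KO (edgeR, adjusted p under 0.05). Of all genes, 31.8% passed that threshold in WT and 29% in KO. Their median log2 fold change was -0.39 in WT and -0.03 in KO, against -0.04 and -0.03 over all genes tested. The cysteinyl leukotriene receptor genes were higher in skin. Cysltr1 differed by 2.85 ± 0.35 in WT (edgeR adjusted p = 4.45e-05) and 4.50 ± 0.41 in KO (edgeR adjusted p = 2.83e-06) on the log2 scale, and Cysltr2 differed by 1.73 ± 0.33 (edgeR adjusted p = 0.000538) and 1.92 ± 0.33 (edgeR adjusted p = 0.000237). Gpr55, a lysophosphatidylinositol receptor gene, was 12.5-fold higher in WT skin and 8.10-fold higher in KO skin, at 102 ± 18.8 against 7.71 ± 1.64 CPM in WT. Ptafr was at 27.9 ± 7.36 CPM in WT skin and 0.715 ± 1.01 in WT spleen, a log2 fold change of 4.56 ± 0.60 (edgeR adjusted p = 1.38e-05). The fifth receptor higher in WT skin was S1pr2 and the fifth in KO skin was Gpr132, and both were named after their values were seen. S1pr2 lost its call in 7 of 15 alternative settings, and Gpr132 in 2.

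Among the receptors lower in skin were those for thromboxane and for S1P-guided exit. Tbxa2r, the thromboxane receptor gene, was at 11.2 ± 5.34 CPM in WT skin against 103 ± 12.6 in WT spleen, a log2 fold change of -3.19 ± 0.27 (edgeR adjusted p = 7.13e-08), and of -2.51 ± 0.25 in KO (edgeR adjusted p = 6.34e-07). S1pr1 was at 100 ± 9.59 CPM in WT skin against 466 ± 18.4 in WT spleen, -2.21 ± 0.12 in WT (edgeR adjusted p = 2.54e-10) and -1.95 ± 0.12 in KO (edgeR adjusted p = 1.11e-09). Gpr18, which lies 36769 bases from Gpr183 on the same strand, moved the other way from it, at -3.36 ± 0.25 in WT (edgeR adjusted p = 1.07e-08) and -2.49 ± 0.23 in KO (edgeR adjusted p = 2.08e-07). P2ry10b, the paralog of P2ry10, was also opposite to its neighbour, at -1.63 ± 0.41 in WT (edgeR adjusted p = 0.00578) and -1.96 ± 0.41 in KO (edgeR adjusted p = 0.00172). Its WT call was lost without WT skin replicate 2 (edgeR adjusted p = 0.0542). Ptger3, which encodes the Gi-coupled prostaglandin E2 receptor EP3, had 0 counts in WT skin and 52 in WT spleen, at least 15.3-fold lower when the WT skin libraries together are given a floor of 3 counts. PCR reads without molecular identifiers are not independent molecules, and this floor covers counting error only.

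Scaled by exon length, which allows a rough comparison of levels between genes, Ltb4r1 changed place among the 6 receptors from group to group. The length joins the exons of all annotated transcripts of a gene, whichever was expressed, so ranks between genes are approximate. In WT skin Ltb4r1 was the highest, at 386 CPM per kilobase of exon, above 99.2% of the 12217 tested genes with a known length. S1pr4 (173) and P2ry10 (170) followed and overlapped each other, and then came Gpr183 (63.1), Ptger4 (26.3) and Ptger2 (6.74). Ltb4r1 stood above 83.9% of tested genes in KO skin and 92.8% in WT spleen. In KO skin the order was S1pr4 (185), P2ry10 (165), Gpr183 (75.2), Ptger4 (31.2), Ltb4r1 (27.5) and Ptger2 (11.7), and Ltb4r1 overlapped Ptger4. In WT spleen S1pr4 (240) led, followed by P2ry10 (77.0), Ltb4r1 (52.1), Gpr183 (31.0), Ptger4 (18.6) and Ptger2 (11.7). In KO spleen Ltb4r1 was last at 1.22 CPM per kilobase, above 14.8% of tested genes, behind S1pr4 (232), P2ry10 (93.7), Gpr183 (37.8), Ptger4 (18.4) and Ptger2 (12.0). The other 5 receptors kept the same order in all 4 groups, S1pr4 and P2ry10 overlapping in both skin groups.

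**Figure D4:**
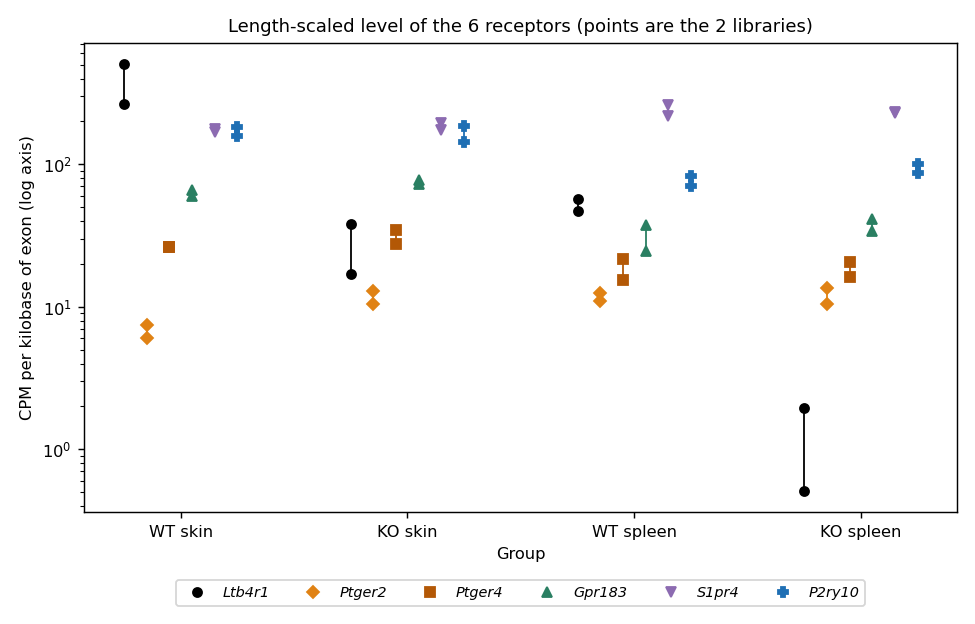
CPM per kilobase of exon (log axis) of the 6 receptors in the 4 groups, with points for the 2 libraries joined by a line. Ltb4r1 (black) is the highest in WT skin at a mean of 386 and the lowest in KO spleen at 1.22, and Ptger2 is the lowest in the other 3 groups.

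The genes whose pattern over the 8 libraries was nearest to that of Ltb4r1 were ranked by the root mean square difference of log2 CPM, each gene centred on its own mean, over 9860 genes. The nearest was Cxcr6 (0.91), a chemokine receptor gene of tissue T cells, followed by Itga1 (1.15), an integrin gene, Frmd5 (1.17), Cyp11a1 (1.29), a steroid-synthesis enzyme gene, Pparg itself (1.30), Ier3 (1.33), Gzmb (1.35), the granzyme B gene, and Gpt2 (1.40). The median over ranked genes was 2.93. Cxcr6 in skin was at 1584 ± 173 CPM in WT and 349 ± 30.1 in KO, and in spleen at 157 ± 3.91 in WT and 14.1 ± 9.49 in KO. Its log2 fold change, KO against WT, was -2.18 ± 0.31 in skin and -3.46 ± 0.38 in spleen, against -3.78 and -5.07 for Ltb4r1. Unlike Ltb4r1, Cxcr6 was higher in KO skin than in WT spleen. Frmd5 in skin was at 70.1 ± 28.2 CPM in WT and 15.3 ± 3.35 in KO, and in spleen at 23.6 ± 2.66 in WT and 1.62 ± 0.388 in KO, the same order of groups as Ltb4r1. The other 5 receptors of the set were not near: P2ry10 was at 2.74, Gpr183 at 2.75, Ptger4 at 2.80, S1pr4 at 3.05 and Ptger2 at 3.16. These differences were computed on the values by which Ltb4r1 was chosen and are a description, with no test.

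**Figure D5:**
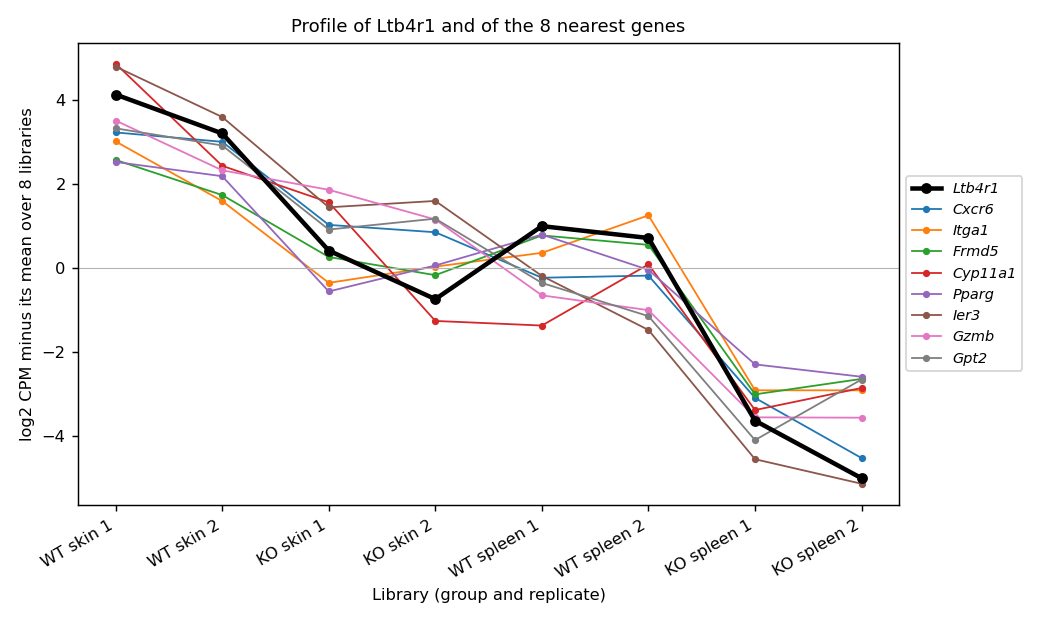
Log2 CPM minus its mean over the 8 libraries for Ltb4r1 (thick black line) and the 8 genes nearest to it by root mean square difference, by library. All 9 lines are highest in WT skin and lowest in KO spleen, and Ltb4r1 lies higher in WT spleen than in KO skin.

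Of the 34 tested genes of G protein signalling that act downstream of these receptors, 0 passed the threshold for genotype by edgeR in skin (7 at an unadjusted p under 0.05), in spleen (4) or averaged over both tissues (5). Of all genes, edgeR called 0.894% in skin, 0.282% in spleen and 0.789% averaged. A count of 0 of 34 is near these shares, and nothing is read from it. DESeq2 called 1 in skin and 1 averaged, limma-voom called 1 in skin, and the gene was Crem each time. Crem, which encodes a cyclic AMP-responsive transcription factor, was in skin at 680 and 688 CPM in WT and 443 and 527 in KO, a log2 fold change of -0.50 ± 0.14 (edgeR adjusted p = 0.112), and of -0.46 ± 0.11 averaged (edgeR adjusted p = 0.0626). Between tissues 10 of the 34 were higher and 6 lower in WT skin, and 13 higher and 6 lower in KO skin, where 31.8% and 29% of all genes passed in either direction. The genes of smallest p were the same in both genotypes, Rgs2, Rgs1, Rgs16 and Crem, the Rgs genes encoding proteins that shorten G protein signals. Rgs2 was at 415 ± 40.3 CPM in WT skin against 10.8 ± 3.35 in WT spleen, a log2 fold change of 5.22 ± 0.19 (edgeR adjusted p = 1.75e-12), and of 5.08 ± 0.20 in KO (edgeR adjusted p = 3.47e-12). Crem was at 684 ± 5.81 against 32.6 ± 4.84 CPM in WT, a log2 fold change of 4.36 ± 0.16 (edgeR adjusted p = 2.65e-12). Rgs16 differed by 3.63 ± 0.25 and Rgs1 by 2.21 ± 0.12 on the log2 scale in WT.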

How the data were processed

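The authors deposited unnormalised counts of reads per gene, made with STAR 2.7.3a and featureCounts on mm10, per the submitters' processing notes. Per the labels' protocols, cDNA was primed with oligo(dT), amplified by PCR, fragmented with a transposon and read as 2 reads of 25 bases. The annotation, the strand setting and the handling of multiply matching reads were not given in the sources used here.

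Genes were filtered with filterByExpr (minimum count 10), scaled by TMM and fitted with edgeR 4.0.16 (robust quasi-likelihood test, 1 coefficient per group, all 8 libraries, prior count 2) in R 4.3.3. P-values were Benjamini-Hochberg adjusted over the 12414 genes, with a threshold of 0.05. The common coefficient of biological variation came to 17.5%. There were 6 comparisons: KO against WT for each tissue, their average and their difference, and skin against spleen for each genotype. Fits were also run on simulated counts drawn with the same spread for every gene. That run does not cover genes as variable or as low as Ltb4r1, and no result here rests on it. Alternatives were upper-quartile and RLE scaling, DESeq2 1.42.0, limma-voom (limma 3.58.1), no filter, only the compared groups, a replicate block and leaving out each library. Gene positions and exon lengths came from GENCODE M21.

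The members and gene lists were chosen with earlier results of these data known. Named genes were Pparg, Foxp3 and the members, list genes past the threshold for genotype, up to 4 list genes of smallest p per tissue comparison, overlapping or neighbouring genes, and the 8 genes nearest to Ltb4r1. Other names were added after their values were seen.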

Additional observations from a re-analysis of the deposited data

How the results depend on the processing

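The log2 fold change of Ltb4r1 kept its sign in every setting tried in each of the 6 comparisons. Leaving out 1 library at a time, it ran from -4.49 to -3.25 in skin, from -5.86 to -4.49 in spleen, from 0.58 to 2.07 for the difference between tissues and from 2.34 to 3.27 for skin against spleen in WT, the last being lowest without WT skin replicate 1. The count of other receptors called for genotype, 0 as reported, was 1 (S1pr1) averaged over both tissues with upper-quartile scaling and with DESeq2. Without the low-count filter it was 1 in skin (S1pr1), 2 in spleen (Cysltr1 and Gpr55), 3 averaged (all 3 of these) and 1 for the difference between tissues (Cysltr1). The cause was not tested. Leaving out 1 library, it ran from 0 to 1 in spleen, averaged and for the difference, the 1 being Cysltr1 without KO spleen replicate 1, and stayed at 0 in skin. The count for skin against spleen ran from 9 to 14 in WT, with 9 without WT skin replicate 1 or without WT spleen replicate 2, and from 9 to 11 in KO. With the replicate block the counts were 0 in the 4 genotype comparisons, 13 in WT and 11 in KO, and Ltb4r1 was at -3.80 in skin and -5.10 in spleen. The numbers were not taken to pair the samples, since deviations of same-numbered libraries correlated at only 0.0283 to 0.112.

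Member effects near 0 changed sign when 1 library was left out. Leaving out 1 library, the difference between tissues ran from -0.016 to 0.47 for Ptger4 (lowest without WT spleen replicate 1), from -0.36 to 0.22 for Gpr183 (positive without WT spleen replicate 2, WT skin replicate 2, KO skin replicate 2 or KO spleen replicate 1) and from -0.011 to 0.27 for S1pr4, and the spleen effect of S1pr4 from -0.17 to 0.10 (both S1pr4 signs changed without WT spleen replicate 2). The skin effect of P2ry10 ran from -0.24 to 0.12 (positive without KO skin replicate 1, and also without replicate 2 of WT skin). The spleen effects ran from -0.15 to 0.21 for Ptger2 and from -0.23 to 0.26 for Ptger4, and the averaged effect of S1pr4 from -0.039 to 0.099. The spleen effect of Gpr183 ran from 0.032 to 0.61 and so came near 0 without changing sign. For skin against spleen in KO, Ptger2 ran from -0.21 to 0.16. Upper-quartile scaling turned the spleen effect of Ptger4 to 0.011, and no other setting that kept all libraries changed the sign of a member effect. The fit to the compared groups only was not run for the averaged effect and the difference, which use all 4 groups. With 2 libraries a group, genotype differences as small as those of S1pr4 and Ptger4 were within 2 SE of 0, and Ltb4r1 in KO spleen rests on 13 counts.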

Other observations

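Of the genes that make, carry or break down these lipids, those that passed the low-count filter were not called for genotype by edgeR. Of 10 tested of 23 enzymes and transporters of leukotrienes and prostaglandins, 0 passed in skin (1 at an unadjusted p under 0.05), in spleen (1) or averaged (0). Of 9 tested of 14 for lysolipids and S1P, 0 passed (1, 3 and 1 at an unadjusted p under 0.05), and DESeq2 and limma-voom also called 0 of either list. Of all genes, edgeR called 0.894% in skin, 0.282% in spleen and 0.789% averaged. Counts of 0 in lists this short are near these shares, and nothing is read from them. None of the 4 oxysterol enzyme genes, Ch25h, Cyp7b1, Hsd3b7 and Cyp27a1, passed the filter, so no test was made of them. Lta4h, which encodes the enzyme that makes leukotriene B4, was in skin at 254 ± 28.4 CPM in WT and 231 ± 8.47 in KO, in spleen at 310 ± 19.3 in WT and 331 ± 5.48 in KO, and was lower in skin than spleen in KO (log2 fold change -0.52 ± 0.12, edgeR adjusted p = 0.00277). Alox5, which encodes the lipoxygenase upstream of it, had 0 counts in WT skin and KO spleen, 1 in WT spleen and 16 in KO skin, all in 1 library, and was named after its values were seen. Between tissues, Sgpp1 and Sgpp2, the S1P phosphatase genes, were lower in WT skin, at -1.76 ± 0.38 (edgeR adjusted p = 0.00164) and -3.39 ± 0.74 (edgeR adjusted p = 0.00188). Plpp1 and Plpp2, lipid phosphate phosphatase genes, were higher in WT skin, at 1.82 ± 0.51 (edgeR adjusted p = 0.0114) and 1.76 ± 0.49 (edgeR adjusted p = 0.0103), and both calls were lost without WT skin replicate 2, that of Plpp1 also without WT spleen replicate 2 (edgeR adjusted p up to 0.118) and that of Plpp2 also without WT spleen replicate 1 (edgeR adjusted p up to 0.121).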
